A study of Mus musculus with 12 samples.

Results

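The 10 genes described here encode the NF-kB subunits (Nfkb1, Nfkb2, Rela, Relb and Rel), IkB proteins and a feedback enzyme. The IkB proteins, which bind the subunits, are those of Nfkbia, Nfkbie, Nfkbiz and Bcl3, and the enzyme is that of Tnfaip3. The 10 genes were taken by symbol from a table of 21956 mouse genes. All 10 were present with enough reads to be tested in each comparison. The table held 12 RNA-seq libraries of brain tissue, 3 in each of the groups Sham-Fabp4fl/fl, Sham-Fabp4CKO, ICH-Fabp4fl/fl and ICH-Fabp4CKO. Intracerebral hemorrhage (ICH) was induced by injecting collagenase, which breaks down vessel walls, into the right striatum, and the tissue next to the hematoma was taken 48 h later. Sham mice gave the same tissue without the injury. Fabp4fl/fl mice carried floxed Fabp4, the gene of a fatty acid binding protein. Fabp4CKO mice carried floxed Fabp4 together with 1 Tmem119 creERT2 allele, an inducible Cre recombinase driven by a microglial gene, and received tamoxifen. Whether the Fabp4fl/fl mice received tamoxifen, and the age of these mice, are not given in the sources used here. The RNA came from whole tissue, so a lower level in a library cannot be told apart as fewer cells of a type or less RNA per cell.

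NF-kB is a family of dimeric transcription factors that switches on cytokines, chemokines and adhesion molecules after injury or infection, and in the injured brain it acts in microglia, endothelial cells, astrocytes and infiltrating leukocytes. In resting cells the classical inhibitors IkB-alpha (Nfkbia) and IkB-epsilon (Nfkbie) hold the dimers in the cytoplasm until IkB kinases mark them for degradation. Rela, Rel and the p50 product of Nfkb1 act mainly in the canonical branch, and Relb and the p52 product of Nfkb2 in the non-canonical branch. Several of these genes are themselves NF-kB targets, so the pathway refills its own inhibitors. IkB-zeta (Nfkbiz) and Bcl3 are nuclear IkB proteins that sit on p50 or p52 dimers at promoters, and A20 (Tnfaip3) edits ubiquitin chains on the upstream adaptors and shuts signaling down. The measurements below are transcript levels, which do not show protein amount or nuclear location.

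In GENCODE M21 (GRCm38) Nfkb1 lies at chr3:135584655-135691547, Rela at chr19:5637483-5648130, Relb at chr7:19606217-19629438, Nfkbiz at chr16:55811375-55838899 and Bcl3 at chr7:19808462-19822770. Because several of the genes can be driven by the factors they encode, the letters of their promoters were read beside the expression data. RefSeq promoters (GRCm38.p6) were given for 7 of the 10 genes, and the 250 bases before each start were searched on both strands for the 10-letter kappaB consensus. These 7 genes had 10 promoters. At least 1 match was held by 7 of the 10 (70%), of the 5 genes Nfkb2, Rel, Nfkbia, Nfkbie and Tnfaip3. Over all genes but those of 1 chromosome, which was left out of the count, 2382 of 32851 promoters (7.25%) held a match. None stood in the promoters of Rela and Bcl3. Each sequence is printed 5′ to 3′ in the direction of its gene, and the capitals mark the letters that match on either strand, so a match on the opposite strand reads as its reverse complement.
Nfkbia (chr12:55492648-55492701, minus strand): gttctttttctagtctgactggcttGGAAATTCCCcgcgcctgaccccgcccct
Nfkbie (chr17:45555569-45555628, plus strand): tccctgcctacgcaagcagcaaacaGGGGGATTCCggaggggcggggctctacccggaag
Rel (chr11:23771026-23771086, minus strand): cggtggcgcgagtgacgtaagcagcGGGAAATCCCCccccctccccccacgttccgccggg
Tnfaip3 (chr10:19015411-19015447, minus strand): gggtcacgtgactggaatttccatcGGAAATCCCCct
Nfkb2 (chr19:46304689-46304717, plus strand): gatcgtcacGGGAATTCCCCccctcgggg
The matches began 29 bases before the annotated start of Nfkbia, 106 before that of Nfkbie, 92 before that of Rel, 12 before that of Tnfaip3 and 39 before that of Nfkb2. In Rel and Nfkb2 the capitals hold 2 matches that overlap, shifted by 1 base. A further match stood 125 bases before the Tnfaip3 start and another 11 bases before the same Nfkb2 start. Alternative starts of Nfkb2 had matches 236 and 225 bases upstream. The Nfkb2 stretch lies within annotated exons of Nfkb2 and of a lncRNA on the opposite strand. A match of letters is a description and shows no binding in this tissue.

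The libraries held 15650822 to 22406226 counts each. Fabp4 itself had 46, 63 and 24 reads in the ICH-Fabp4fl/fl mice, 5, 3 and 10 in the ICH-Fabp4CKO mice, 2, 1 and 2 in the Sham-Fabp4fl/fl mice and 0 in each Sham-Fabp4CKO mouse, so the sham libraries were too shallow in this gene to check their genotype. Tmem119, the gene of the Cre driver, stood at 27.3 ± 3.75, 29.6 ± 3.42, 99.2 ± 12.9 and 119.8 ± 51.1 CPM (SD, n = 3) in Sham-Fabp4fl/fl, Sham-Fabp4CKO, ICH-Fabp4fl/fl and ICH-Fabp4CKO. Markers of neurons, astrocytes and oligodendrocytes were detected in every library. The libraries that stood apart were Sham-Fabp4fl/fl mouse 3 (chi-square per gene of 63.5 and 48.7 against its group mates, which gave 10.9 between themselves) and ICH-Fabp4CKO mouse 2 (156 and 324, against 51.7). ICH-Fabp4fl/fl mouse 1 had 16.3% mitochondrial reads, against 7.90 to 11.9% elsewhere, and ICH-Fabp4CKO mouse 1 had 1 read over 4 Y-linked genes, against 1302 to 2251 in the other 11 libraries. Their part in the results was not tested beyond leaving each library out. Within a group, no 2 libraries were alike enough to be copies.

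All 10 genes were higher after ICH in Fabp4fl/fl mice. In each of them the 3 ICH libraries lay above the 3 sham libraries. The log2 fold changes ran from 1.01 for Rela to 5.37 for Bcl3, with a median of 1.52, beside a median of 0.02 over the 14719 genes tested. All 10 passed an adjusted p of 0.05 (quasi-likelihood F-test of edgeR, adjusted over all genes tested by the method of Benjamini and Hochberg). Of all genes tested, 26.2% were called higher by this rule, and 34.4% had ICH libraries wholly above the sham libraries. Cell type markers moved in the same comparison. Among them 3 of 6 astrocyte, 2 of 5 oligodendrocyte and 3 of 5 erythroid genes tested were higher. The summed astrocyte level went from 2639 to 2881 CPM in sham to 5837 to 7256 CPM after ICH. That of oligodendrocytes went from 7837 to 14050 CPM to 17530 to 27670 CPM. Of the markers tested, 7 of 8 microglial, 8 of 8 monocyte and macrophage and 7 of 7 endothelial genes were higher and 4 of 8 neuronal genes lower, and the summed microglial level went from 435 to 526 CPM in sham to 1657 to 1849 CPM after ICH and that of monocytes and macrophages from 24.6 to 27.0 CPM to 185 to 856 CPM. Of the 10 neutrophil markers only 5 had enough reads to be tested, and 4 of them were higher. A marker near absent in sham was tested only if its ICH libraries held enough reads, which tilts this count upward. The summed levels of the 10 markers were 2.08 to 2.8 CPM in sham and 17.8 to 52.1 CPM after ICH. The part of these markers in the rise of the 10 genes was not tested.

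Levels are given as CPM, counts scaled to a common library size (TMM over all 12 libraries), for mice 1, 2 and 3 of a group. Among the subunits, Nfkb1, the precursor of p50, stood at 19.04, 17.4 and 16.9 CPM in Sham-Fabp4fl/fl and at 52.6, 53.3 and 34.8 CPM in ICH-Fabp4fl/fl, a log2 fold change of 1.35 (SE 0.18, adjusted p = 0.0014, edgeR). The third ICH mouse was the lowest of the 3, yet stood above every sham mouse. Nfkb2, the precursor of p52, moved the most of the 5 subunits. It rose from 3.52, 2.90 and 3.15 CPM to 22.4, 19.2 and 13.2 CPM, a log2 fold change of 2.47 (SE 0.23, adjusted p = 0.000464, edgeR). Nfkb2 was the only one of the 10 genes with counts that were not whole. In GENCODE M21 (GRCm38), 6.52% of its exon bases are shared with Psd on the opposite strand, and 11.6% with a lncRNA, and no source states that strand was kept, so reads of these genes cannot be told apart in the shared stretch.

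Rela, the p65 subunit with the main transactivation domain, moved least. Its levels were 25.8, 24.7 and 20.6 CPM in sham and 56.7, 49.6 and 41.5 CPM after ICH, a log2 fold change of 1.01 (SE 0.16, adjusted p = 0.00248, edgeR). Relb, the partner of p52, stood at 3.57, 4.82 and 3.93 CPM in sham and 16.5, 14.7 and 10.6 CPM after ICH, a log2 fold change of 1.72 (SE 0.23, adjusted p = 0.00146, edgeR). Rel, the lymphoid and myeloid subunit c-Rel, stood at 4.19, 5.92 and 4.55 CPM in sham. After ICH it was at 9.85, 14.8 and 9.46 CPM, a log2 fold change of 1.18 (SE 0.26, adjusted p = 0.00949, edgeR). For Rel the second ICH mouse was the highest, whereas for Nfkb2, Rela and Relb it was the first.

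The classical inhibitors rose too. Nfkbia stood at 25.2, 24.1 and 8.68 CPM in sham and 85.4, 47.0 and 30.0 CPM after ICH, a log2 fold change of 1.43 (SE 0.48, adjusted p = 0.0432, edgeR). Its groups differed by only 4.81 CPM at their nearest, between sham mouse 1 and ICH mouse 3. The call was lost when any of the 3 sham libraries was left out (adjusted p = 0.064, 0.0813 and 0.0906, edgeR) or ICH mouse 1 or 2 (0.135 and 0.0935), and was kept without ICH mouse 3 (0.0174). Nfkbie stood at 3.04, 2.68 and 1.45 CPM in sham and 7.74, 7.98 and 6.11 CPM after ICH, a log2 fold change of 1.56 (SE 0.32, adjusted p = 0.00735, edgeR). In both inhibitors the low sham library was mouse 3, the one that stood apart from its group mates. Its levels lay near those of Sham-Fabp4CKO, 9.85 to 12 CPM for Nfkbia and 1.06 to 1.52 CPM for Nfkbie.

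The nuclear IkB genes moved most. Nfkbiz rose from 1.98, 2.96 and 1.86 CPM to 33.6, 25.9 and 17.7 CPM, a log2 fold change of 3.46 (SE 0.30, adjusted p = 0.000385, edgeR). Bcl3 was close to absent in sham tissue, with 25, 7 and 11 reads (1.21, 0.383 and 0.568 CPM), and had 575, 559 and 360 reads after ICH (40.5, 34.9 and 19.1 CPM). Its log2 fold change of 5.37 (SE 0.45, adjusted p = 0.000369, edgeR) was the largest of the 10. In this gene 6.51% of the exon bases overlap an antisense transcript. Tnfaip3 rose from 5.59, 4.44 and 5.06 CPM to 17.0, 16.9 and 9.78 CPM, a log2 fold change of 1.48 (SE 0.25, adjusted p = 0.00356, edgeR). In 7 of the 10 genes ICH mouse 1 was the highest of its group, and in all 10 mouse 3 was the lowest.

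**Figure D1:**
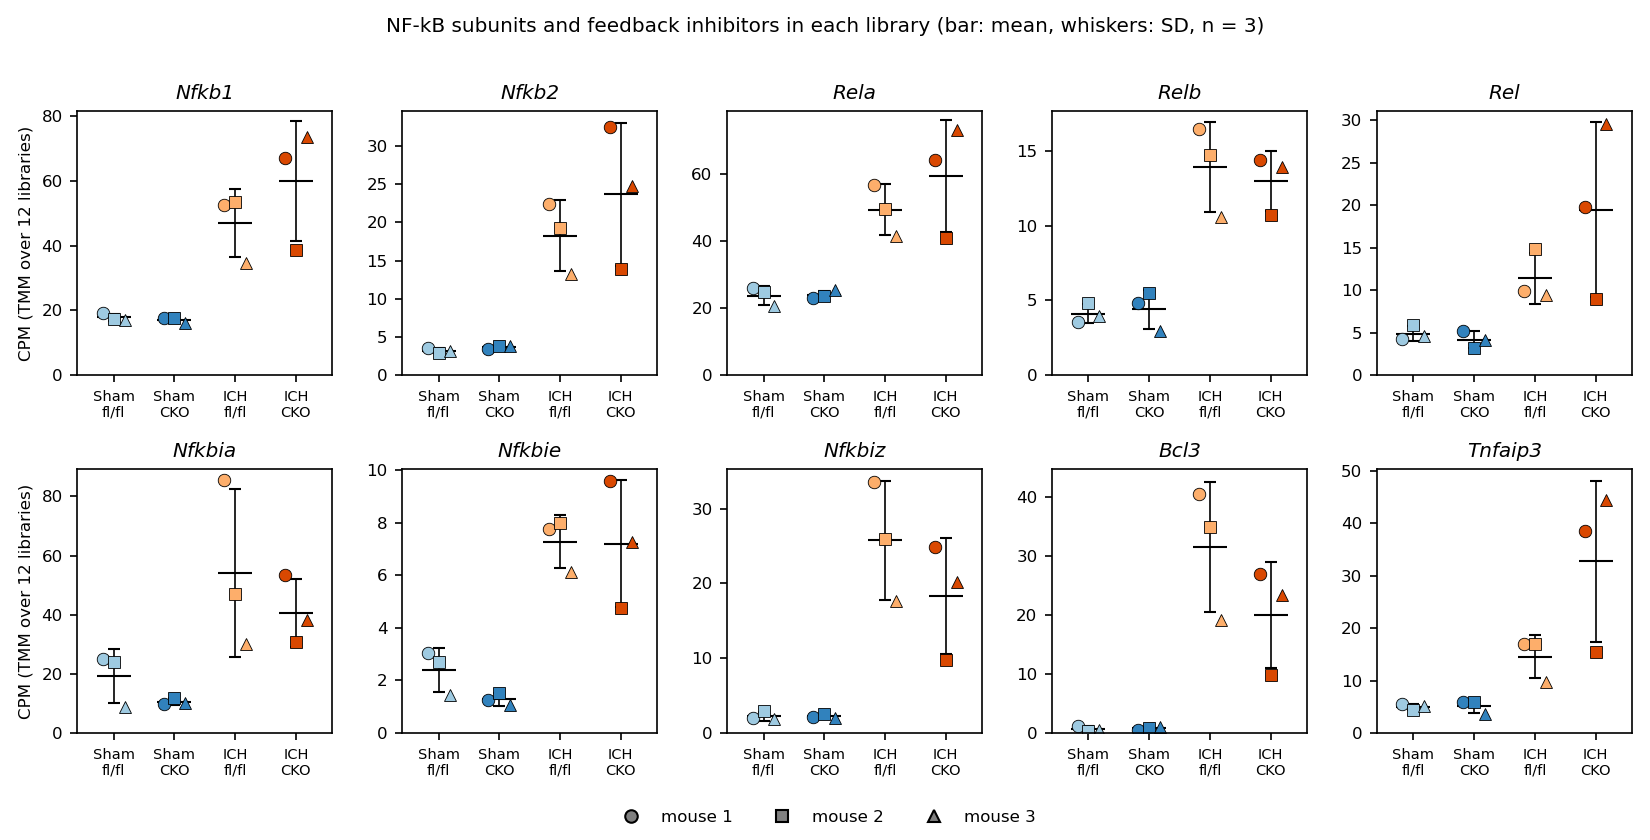
Level of each of the 10 genes in CPM (y axis, linear from 0, with its own range per panel) in the 4 groups (x axis), with 1 symbol per mouse, a bar at the mean and whiskers of 1 SD (n = 3). In each panel the ICH libraries lie above the sham libraries of the same genotype, and ICH-Fabp4CKO mouse 2 (square) is the lowest ICH-Fabp4CKO library in all 10.

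All 10 genes were also higher after ICH in Fabp4CKO mice, again with no overlap between the groups. The log2 fold changes ran from 1.31 for Rela to 4.68 for Bcl3, with a median of 2.35, beside 0.01 over the 14737 genes tested. The adjusted p-values of the 10 lay between 0.00532 and 0.0173 (edgeR's quasi-likelihood test). Of all genes tested, 24.5% were called higher and 33.2% had ICH libraries wholly above sham. Here 7 of 8 microglial and 8 of 8 monocyte and macrophage markers tested were higher. Of the 10 neutrophil markers 7 were tested and 5 were higher, a count tilted upward in the same way. Summed levels were 434 to 495 CPM in sham and 1827 to 4722 CPM after ICH for microglia. For monocytes and macrophages they were 23.9 to 26.7 and 165 to 859 CPM, and for neutrophils 0.552 to 3.40 and 19.03 to 270 CPM. Of the endothelial markers tested 3 of 7 were higher, as were 3 of 6 astrocyte, 0 of 5 oligodendrocyte and 0 of 5 erythroid markers. None of the 8 neuronal markers was lower at the adjusted threshold, and 5 were lower at an unadjusted p under 0.05 (edgeR). The part of these cell types was not tested. The count of called genes among the 10 fell to 6 without Sham-Fabp4CKO mouse 1, where 847 genes of all were called against 5247 with every library, and to 7 without Sham-Fabp4CKO mouse 2, Sham-Fabp4CKO mouse 3 or ICH-Fabp4CKO mouse 1. The genes that lost the call were Rel and Rela in each of these settings, Tnfaip3 without any 1 sham library and Relb without Sham-Fabp4CKO mouse 1 or ICH-Fabp4CKO mouse 1, with adjusted p-values of 0.0506 to 0.0771.

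In Fabp4CKO mice the subunit with the widest spread after ICH relative to its mean was Rel (SD 52.8% of the mean). It stood at 5.23, 3.22 and 4.09 CPM in sham and at 19.8, 9.01 and 29.5 CPM after ICH, a log2 fold change of 2.22 (SE 0.46, adjusted p = 0.0173, edgeR). Nfkb2 stood at 3.38, 3.76 and 3.77 CPM in sham and 32.5, 13.9 and 24.8 CPM after ICH, a log2 fold change of 2.70 (SE 0.33, adjusted p = 0.00594, edgeR). In both genes mouse 2 was the lowest ICH library. Nfkb1 went from 16.1 to 17.6 CPM in sham to 38.7 to 73.6 CPM after ICH, and Rela from 22.9 to 25.3 CPM to 40.7 to 72.9 CPM. Relb went from 2.94 to 5.46 CPM to 10.7 to 14.4 CPM, the narrowest ICH range of the 5 subunits.

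Among the IkB genes, Nfkbia stood at 9.85, 12 and 10.02 CPM in Sham-Fabp4CKO and at 53.3, 30.6 and 38.2 CPM in ICH-Fabp4CKO. Its log2 fold change was 1.94 (SE 0.23, adjusted p = 0.00589, edgeR). Nfkbie stood at 1.25, 1.52 and 1.06 CPM and at 9.57, 4.74 and 7.27 CPM, a log2 fold change of 2.49 (SE 0.33, adjusted p = 0.00662, edgeR). Both had low and even sham levels in this genotype. Nfkbiz went from 2.07 to 2.51 CPM to 9.75 to 24.9 CPM (log2 fold change 3.04, SE 0.38), and Bcl3 from 0.509 to 0.966 CPM to 9.81 to 26.8 CPM (4.68, SE 0.49). Tnfaip3 stood at 5.97, 6 and 3.59 CPM in sham and at 38.4, 15.4 and 44.4 CPM after ICH, a log2 fold change of 2.66 (SE 0.45, adjusted p = 0.0104, edgeR). Mice 1 and 3 of ICH-Fabp4CKO held the highest Tnfaip3 levels of all 12 libraries.

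**Figure D2:**
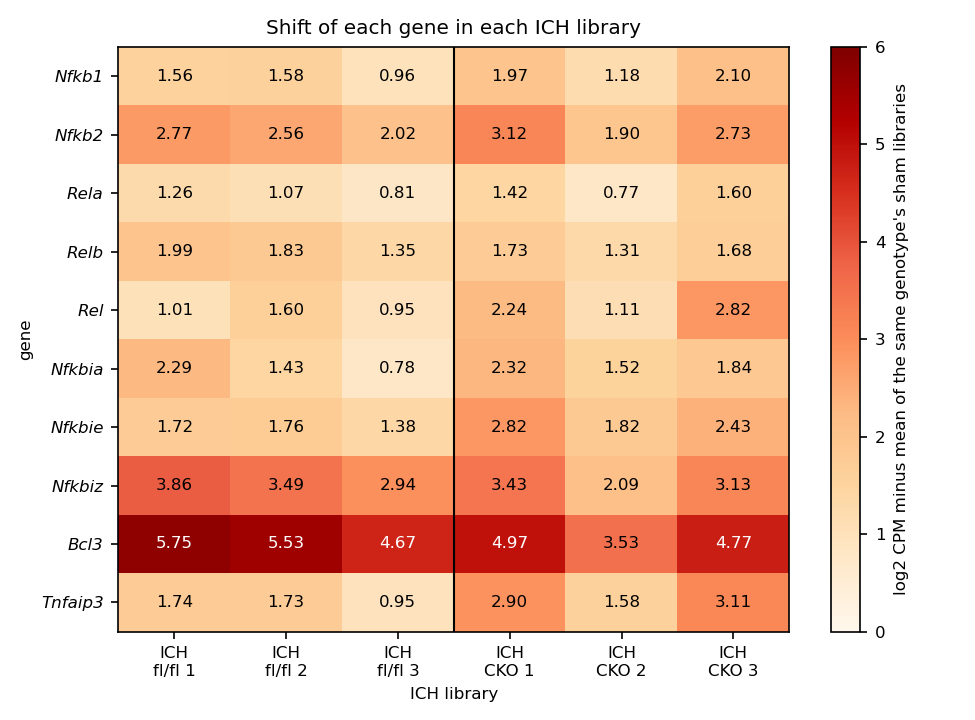
Shift of each gene (rows) in each ICH library (columns), as log2 CPM with a prior count of 2 minus the mean of the sham libraries of the same genotype, with the value printed in each cell. The shifts run from 0.77 for Rela in ICH-Fabp4CKO mouse 2 to 5.75 for Bcl3 in ICH-Fabp4fl/fl mouse 1, and all 60 cells are above 0.

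Averaged over the 10 genes, the shift from sham was 2.39, 2.26 and 1.68 on the log2 scale in ICH-Fabp4fl/fl mice 1, 2 and 3, and 2.69, 1.68 and 2.62 in ICH-Fabp4CKO mice 1, 2 and 3. The 2 lowest mice, 1 of each genotype, had the same mean shift to 2 decimals, and they also had the lowest summed level of 8 monocyte and macrophage markers among the ICH libraries (185 and 165 CPM, against 452 to 859 CPM in the other 4). The same 2 mice had the lowest summed level of 10 neutrophil markers (17.8 and 19.03 CPM, against 30.1 to 270 CPM). Their neuronal markers were the highest of the ICH libraries, with summed levels of 3920 and 4221 CPM against 1363 to 2135 CPM in the other 4 and 4125 to 5516 CPM in sham. Snap25, a synaptic gene, stood at 889 and 956 CPM in them, against 371 to 504 CPM, and Ppp1r1b, a gene of striatal neurons, at 1335 and 950 CPM, against 372 to 522 CPM. The part of these cells in the shifts was not tested.

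To see whether microglial loss of Fabp4 changed these genes after ICH, ICH-Fabp4CKO was compared with ICH-Fabp4fl/fl. None of the 10 genes passed the adjusted threshold and in none did the groups separate. Without adjustment 1 of the 10 (Tnfaip3) had p under 0.05, and DESeq2 also called 0 of the 10. Over all 14600 genes tested, 0% passed the adjusted threshold, 12.2% had an unadjusted p under 0.05, and in 19.8% the groups did not overlap. The median log2 difference of the 10 genes was 0.18, beside 0.06 over all genes. These 6 ICH libraries are the same as in the comparisons with sham.

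Tnfaip3 had the largest difference. It was at 38.4, 15.4 and 44.4 CPM in ICH-Fabp4CKO and at 17.0, 16.9 and 9.78 CPM in ICH-Fabp4fl/fl, a log2 difference of 1.23 (SE 0.43, 95% interval 0.21 to 2.25, adjusted p = 0.355, edgeR). Of the 3 knockout mice 2 stood above all 3 fl/fl mice, and mouse 2 lay among them. Without ICH-Fabp4CKO mouse 2 the difference was 1.57 (adjusted p = 0.0697, edgeR), and over all alternatives the adjusted p lay between 0.0697 and 0.724. Rel was at 19.8, 9.01 and 29.5 CPM in ICH-Fabp4CKO and at 9.85, 14.8 and 9.46 CPM in ICH-Fabp4fl/fl, so that knockout mice 1 and 3 stood above all 3 fl/fl mice and mouse 2 below them. Its log2 difference was 0.83 (95% interval -0.23 to 1.89, adjusted p = 0.49, edgeR). The differences of Nfkb1, Nfkb2 and Rela were 0.41, 0.44 and 0.32, with intervals that included 0 and reached 1.10, 1.26 and 0.91.

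The nuclear IkB genes had negative values in the same comparison. Bcl3 was at 26.8, 9.81 and 23.3 CPM in ICH-Fabp4CKO against 40.5, 34.9 and 19.1 CPM in ICH-Fabp4fl/fl, a log2 difference of -0.59 (95% interval -1.62 to 0.43, adjusted p = 0.602, edgeR). Nfkbiz had -0.43 (95% interval -1.35 to 0.49, adjusted p = 0.676, edgeR) and Nfkbia -0.34 (-1.28 to 0.60, adjusted p = 0.752). Relb and Nfkbie had differences of -0.04 and 0.04, with intervals of -0.58 to 0.50 and -0.68 to 0.76. A difference of 1.5-fold in either direction, or more, was within the interval of 9 of the 10 genes after ICH, all but Relb.

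Beside these values, the summed level of 8 microglial markers was 1849, 1657 and 1783 CPM in ICH-Fabp4fl/fl and 3332, 1827 and 4722 CPM in ICH-Fabp4CKO mice 1, 2 and 3. Mice 1 and 3 of ICH-Fabp4CKO thus had the highest microglial sums as well as the highest Tnfaip3 levels. The 8 markers were not alike in this, since 6 of 8 had a positive log2 difference between the ICH groups, and P2ry12, a defining microglial gene, stood at 47.98 and 60.4 CPM in mice 1 and 3 against 51.4 to 99.3 CPM in ICH-Fabp4fl/fl. Their neutrophil sums were 135 and 270 CPM, against 17.8 to 52.1 CPM in the other 4 ICH libraries, and Ly6g, a defining neutrophil gene, had 4 and 18 reads in them and 0 in the other 4. Endothelial sums went the other way, 445 to 583 CPM in ICH-Fabp4CKO against 777 to 1839 CPM in ICH-Fabp4fl/fl, and so did oligodendrocyte sums, 6809 to 10880 against 17530 to 27670 CPM. The part of these cell types in the differences of the 10 genes was not tested.

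**Figure D3:**
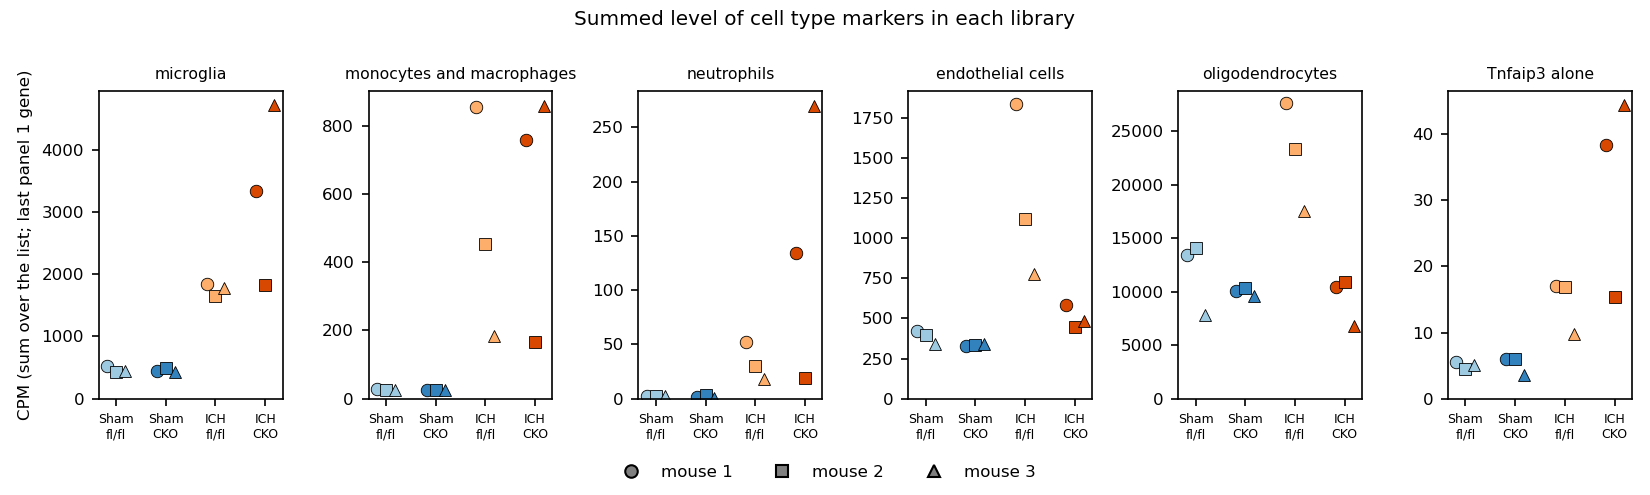
Summed CPM of the markers of 5 cell types in each library (y axis, linear from 0), with Tnfaip3 in the last panel, in the 4 groups (x axis) and with 1 symbol per mouse. ICH-Fabp4CKO mice 1 and 3 are highest for microglia, neutrophils and Tnfaip3, and the ICH-Fabp4fl/fl mice are highest for endothelial cells and oligodendrocytes.

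In sham tissue the genotypes were compared as the baseline. None of the 10 genes passed the adjusted threshold in edgeR or DESeq2, and in none did the groups separate. Of all 14395 genes tested, 0.111% passed the adjusted threshold, 10.2% had an unadjusted p under 0.05 and 14.8% had groups that did not overlap. An unadjusted p under 0.05 was seen for the 2 classical inhibitors, Nfkbia (log2 difference -0.85, SE 0.36, adjusted p = 0.484, edgeR) and Nfkbie (-0.89, SE 0.34, adjusted p = 0.48). The overlap came from Sham-Fabp4fl/fl mouse 3. Nfkbia stood at 25.2, 24.1 and 8.68 CPM in Sham-Fabp4fl/fl against 9.85 to 12 CPM in Sham-Fabp4CKO, and Nfkbie at 3.04, 2.68 and 1.45 CPM against 1.06 to 1.52 CPM. Without Sham-Fabp4fl/fl mouse 3 both passed, with adjusted p = 0.000757 for Nfkbia and 0.0243 for Nfkbie (edgeR). That fit called 2862 of the 14602 genes tested, beside these 2 of the 10. Other genes split the sham libraries in the same way. Ppp1r1b was at 473 and 533 CPM in Sham-Fabp4fl/fl mice 1 and 2, against 1415 CPM in mouse 3 and 928 to 1748 CPM in Sham-Fabp4CKO, and Mbp, a myelin gene, at 8319 and 8215 CPM, against 4627 CPM and 5817 to 6485 CPM. The part of tissue composition in the difference of Nfkbia and Nfkbie was not tested. The other 8 genes had log2 differences between -0.21 and 0.20.

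The interaction, that is the ICH effect in Fabp4CKO minus the ICH effect in Fabp4fl/fl, was not past the adjusted threshold for any of the 10 genes in edgeR or DESeq2. None had an unadjusted p under 0.05 in the main edgeR fit, where Tnfaip3 had 0.0557. For Tnfaip3 it was 0.0483 with relative log expression scaling, 0.0417 with total counts and 0.0412 with no filter (edgeR). With DESeq2 it was 0.037. The adjusted p in these settings lay between 0.342 and 0.525. Of all 15089 genes tested, 0.0199% passed the adjusted threshold and 9.94% had an unadjusted p under 0.05. The largest values were 1.13 for Tnfaip3 (SE 0.53, adjusted p = 0.514, edgeR), 1.00 for Rel (SE 0.54, adjusted p = 0.572) and 0.88 for Nfkbie (SE 0.46, adjusted p = 0.559). The interaction was negative for Bcl3 (-0.75, SE 0.70), Nfkbiz (-0.47, SE 0.50) and Relb (-0.20, SE 0.36). Without ICH-Fabp4CKO mouse 2 the value was 1.47 for Tnfaip3 (adjusted p = 0.0621) and 1.34 for Rel (adjusted p = 0.0875), where 371 genes of all were called against 3 with every library.

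**Figure D4:**
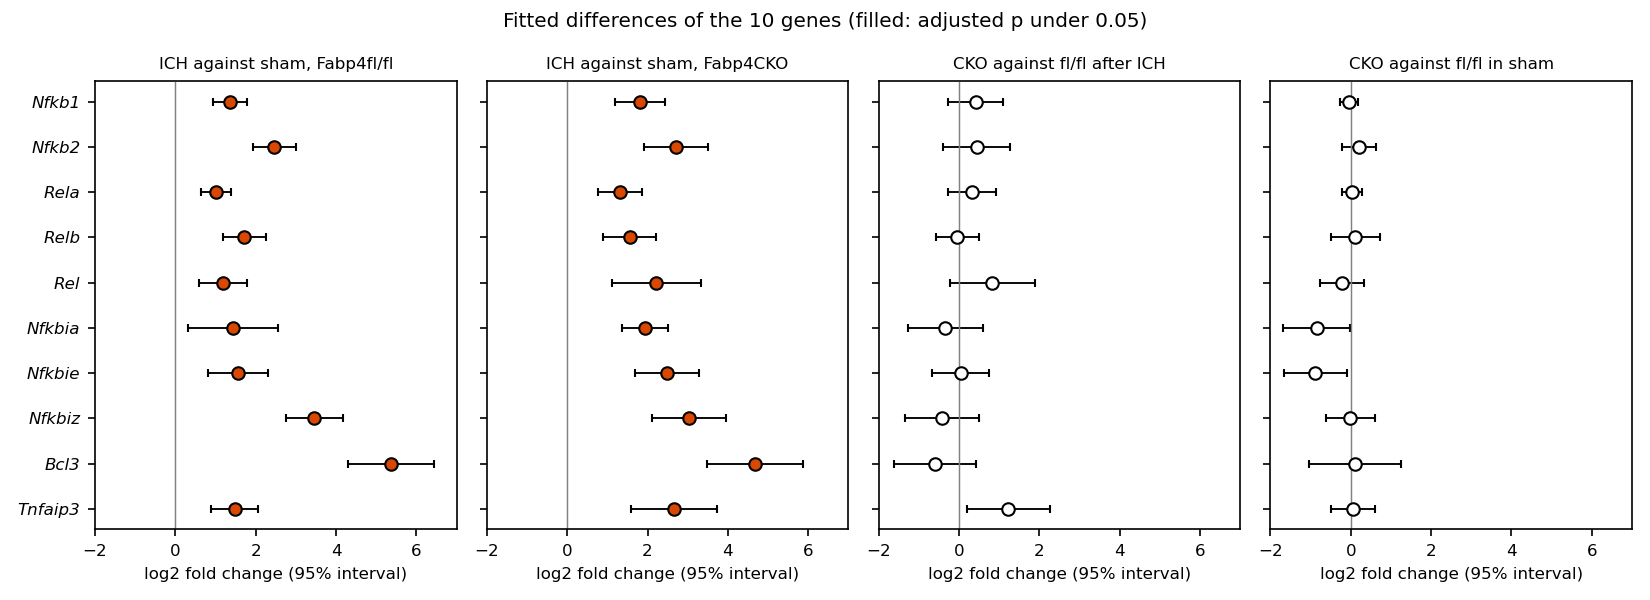
Log2 fold change of the 10 genes (x axis, points) with 95% intervals (bars) in the 4 comparisons of groups, filled where the adjusted p was under 0.05. The 10 points of each ICH comparison are filled, and the 20 points of the genotype comparisons are open.

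Per kilobase of exon (GENCODE M21, all annotated exons of a gene joined), Rela was the highest subunit transcript in every group. It stood at 7.70 ± 0.90 CPM per kb (SD, n = 3) in Sham-Fabp4fl/fl, 7.78 ± 0.40 in Sham-Fabp4CKO, 16.03 ± 2.47 in ICH-Fabp4fl/fl and 19.3 ± 5.4 in ICH-Fabp4CKO. Nfkb1 followed in sham at 1.48 ± 0.09 and 1.42 ± 0.07 CPM per kb. After ICH, Nfkb2 was level with it within the spread by this measure, at 3.99 ± 1.01 against 3.89 ± 0.87 CPM per kb in ICH-Fabp4fl/fl. In ICH-Fabp4CKO the values were 5.17 ± 2.04 against 4.96 ± 1.54. The joined exons measure 12.06 kb for Nfkb1, 4.58 kb for Nfkb2 and 3.07 kb for Rela. The order of the genes depends on these lengths. In CPM, Nfkb1, Nfkb2 and Rela stood at 46.9, 18.3 and 49.2 in ICH-Fabp4fl/fl and at 59.8, 23.7 and 59.2 in ICH-Fabp4CKO. Relb was at 3.58 ± 0.78 and 3.34 ± 0.51 CPM per kb after ICH. Rel was the lowest of the 5 subunits in every group, in Sham-Fabp4fl/fl within the spread of Nfkb2, and reached 1.53 ± 0.40 and 2.60 ± 1.38 CPM per kb after ICH. Among the IkB genes and Tnfaip3, Nfkbia was the highest per kb in all groups. It was at 12 ± 5.73 and 6.60 ± 0.74 in sham and 33.6 ± 17.6 and 25.3 ± 7.2 after ICH.

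As a share of the summed level per kb of the 5 subunits, Rela fell from 64.3 to 68.7% in Sham-Fabp4fl/fl to 52.9 to 58.1% in ICH-Fabp4fl/fl, and from 64.4 to 70.4% to 52.3 to 56.5% in the Fabp4CKO groups. The Nfkb2 share went from 5.22 to 6.61% to 12.4 to 14.7% in Fabp4fl/fl and from 6.35 to 7.03% to 12.6 to 17.8% in Fabp4CKO. Neither share overlapped between ICH and sham in either genotype. With 3 mice a group an exact permutation test cannot go below p = 0.1, so no test is given. The shares of Nfkb1 were 11.4 to 14.5% over the 12 libraries. All these shares rest on the joined exon lengths given above.

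**Figure D5:**
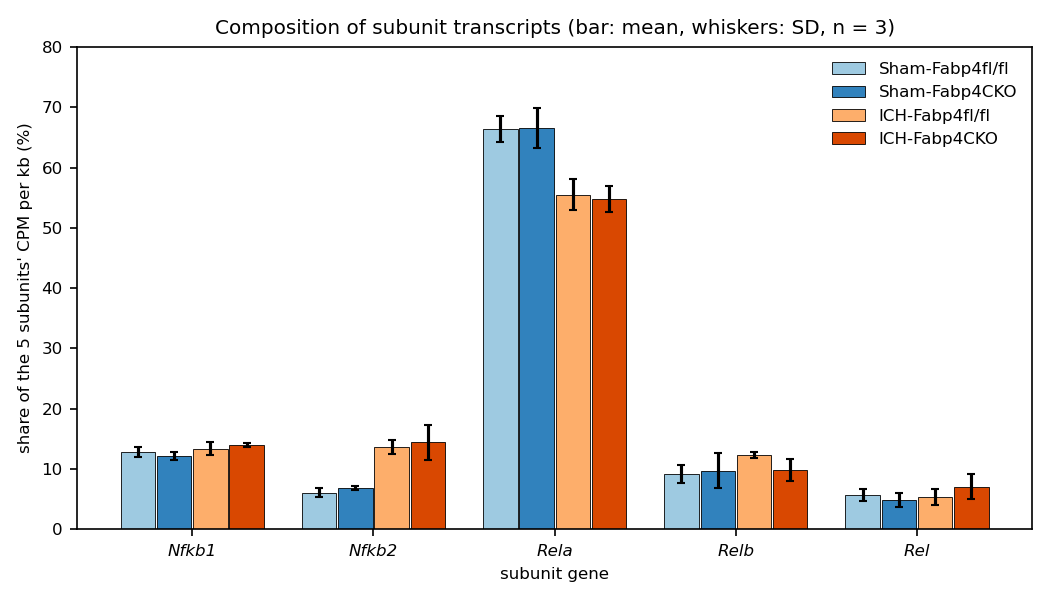
Share of each subunit gene in the summed CPM per kb of the 5 subunits (y axis, percent, bars at the mean and whiskers of 1 SD, n = 3) in the 4 groups. The Rela bars are lower and the Nfkb2 bars higher in the ICH groups than in the sham groups.

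Within the 6 ICH libraries the 10 genes varied together in some pairs and not in others, with values of r from -0.125 to 0.98. Nfkbiz and Bcl3 followed each other (Pearson r = 0.98, exact permutation p = 0.00278, adjusted p = 0.0312; Spearman rho = 1, exact permutation p = 0.00278, adjusted p = 0.0833). Nfkb1 and Rela did so too (r = 0.971, exact permutation p = 0.00556, adjusted p = 0.0357; rho = 0.886, p = 0.0333, adjusted p = 0.1). Without the 2 libraries farthest from the median these values of r were 0.919 and 0.948. Tnfaip3 followed Nfkb1 (r = 0.936, exact permutation p = 0.00278, adjusted p = 0.0312; rho = 0.943, p = 0.0167, adjusted p = 0.0833; r = 0.853 without the 2 libraries), but had r = 0.0377 with Bcl3 (exact permutation p = 0.951, rho = 0.429, p = 0.419) and 0.0168 with Nfkbia (p = 0.982, rho = 0.6, p = 0.242). Of the 45 pairs computed, 9 had an adjusted p under 0.05 for r and none for rho. The libraries share their genotype groups of 3, within which no correlation can be tested, and the markers named above differ between the same libraries.

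Ratios of reads within a library do not depend on the scaling between libraries. Tnfaip3 had 0.199, 0.360 and 0.326 reads per read of Nfkbia in ICH-Fabp4fl/fl and 0.721, 0.501 and 1.16 in ICH-Fabp4CKO. Bcl3 had 0.714, 0.703 and 0.461 reads per read of Rela in ICH-Fabp4fl/fl and 0.420, 0.241 and 0.320 in ICH-Fabp4CKO. In neither of these ratios did the ICH groups overlap. In the other 2 ratios computed they did, with 0.174 to 0.299 against 0.221 to 0.405 reads of Rel per read of Rela and 0.361 to 0.426 against 0.337 to 0.484 reads of Nfkb2 per read of Nfkb1 (ICH-Fabp4fl/fl against ICH-Fabp4CKO). All 4 were chosen with the levels in view and carry no test, and among single genes 19.8% had ICH groups that did not overlap. In sham, Tnfaip3 had 0.222, 0.184 and 0.583 reads per read of Nfkbia in Fabp4fl/fl and 0.606, 0.5 and 0.358 in Fabp4CKO. The sham groups overlapped, and mice 1 and 2 of Sham-Fabp4fl/fl had the lowest of these sham ratios.

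Over the same 6 libraries, the genes whose log2 CPM was most like that of a member were named for description, as the 2 highest values of r among 12223 genes with a mean of at least 5 CPM. For Rel they were Clcn5 and Cybb (both r = 0.996), and Cybb encodes the catalytic subunit of the phagocyte NADPH oxidase. For Nfkb2 they were Yap1 and Ccr1 (r = 0.996 and 0.985), for Nfkb1 Kctd11 and Alg6, and for Tnfaip3 Spart and Brox. For Relb they were Ogg1 and Bcl2l1 (r = 0.991 and 0.990), for Nfkbia Mafk and Tubgcp3, for Nfkbie Arhgef40 and Ttc12, for Nfkbiz Cav2 and Slc30a6, and for Bcl3 Plekhg2 and Galnt6. With 6 libraries and this many genes, high values of r are found for any gene.

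The other genes of the pathway are given from lists by role. Of all genes tested, 26.2% were called higher after ICH in Fabp4fl/fl and 24.5% in Fabp4CKO. Called lower were 2845 of 14719 and 1642 of 14737. A gene near absent in sham was tested only if its ICH libraries held enough reads, which tilts the counts and medians of the lists upward. Of the 11 ligands, 8 were tested in Fabp4fl/fl and 6 were higher, with a median log2 fold change of 3.15. In Fabp4CKO 6 of 7 tested were higher. The smallest p in Fabp4fl/fl belonged to Tnfsf12, Ltb and Tnfsf14. Tnfsf12 (TWEAK) had a log2 fold change of 1.94 (SE 0.26, adjusted p = 0.00146, edgeR) and Ltb one of 3.55 (SE 0.54). Ltb and Tnfsf14, ligands of the lymphotoxin-beta receptor, which feeds the non-canonical branch, stayed low, at 2.75 ± 1.32 and 1.38 ± 0.64 CPM (SD, n = 3) after ICH. Tnfsf14 was at 0.016 CPM in Sham-Fabp4fl/fl and at 0 in Sham-Fabp4CKO, where it was not tested.

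Of the receptors, 10 of 11 tested were higher in Fabp4fl/fl and 11 of 11 in Fabp4CKO, with medians of 2.65 and 3.57. The TNF receptor genes Tnfrsf1b and Tnfrsf1a rose from 6.04 ± 1.55 to 79.7 ± 22.8 CPM (log2 fold change 3.67, SE 0.29) and from 14.1 ± 2.8 to 117 ± 37 CPM (3.0, SE 0.26) in Fabp4fl/fl. Tlr2, the receptor for bacterial lipopeptides, rose from 3.16 ± 1.23 to 48.8 ± 15.6 CPM (3.90, SE 0.35, adjusted p = 0.000408, edgeR). Of the 28 kinases and adaptors, 17 were higher and 1 lower in Fabp4fl/fl, and 17 higher and 2 lower in Fabp4CKO. The adaptor Myd88 (2.75, SE 0.21), the kinase Irak4 (2.90, SE 0.27) and the adaptor Ticam1 (1.33, SE 0.17) had the smallest p. Btrc, which recognizes phosphorylated IkB for degradation, fell from 81.2 ± 14.7 to 38.5 ± 11.7 CPM (-1.11, SE 0.26, adjusted p = 0.0129, edgeR), a call lost without ICH mouse 2 (adjusted p = 0.0508).

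Of the other inhibitors, 7 of 11 tested were higher and none lower in Fabp4fl/fl, and 6 higher and 1 lower in Fabp4CKO. Zc3h12a (Regnase-1, an RNase that degrades cytokine mRNA) had a log2 fold change of 2.80 (SE 0.45, adjusted p = 0.00303, edgeR) in Fabp4fl/fl and 4.31 (SE 0.58) in Fabp4CKO. In Fabp4fl/fl the inhibitory kinase homolog Irak3 had 2.05 (SE 0.38) and the linear-ubiquitin hydrolase Otulin 0.76 (SE 0.17). Of the 25 target genes, 20 were tested in Fabp4fl/fl, with 15 higher, 2 lower and a median of 3.50. In Fabp4CKO 22 were tested, with 19 higher and 1 lower. Between the sham groups only 14 of the 25 had enough reads to be tested. The chemokines Cxcl10 and Ccl2 had log2 fold changes of 6.81 (SE 0.40) and 7.20 (SE 0.48) in Fabp4fl/fl and 6.56 (SE 0.76) and 7.85 (SE 0.83) in Fabp4CKO, and the adhesion gene Icam1 had 3.75 (SE 0.30) and 4.15 (SE 0.40). The mitochondrial superoxide dismutase Sod2 fell by 0.60 (SE 0.18) and by 0.72 (SE 0.19), and Cd83, a surface protein of activated antigen-presenting cells, fell by 1.03 (SE 0.21) in Fabp4fl/fl. The Sod2 call in Fabp4fl/fl was lost without any 1 sham library (adjusted p = 0.0632, 0.0826 and 0.0642, edgeR) and without ICH mouse 1 or 2 (0.0524 and 0.0966). No gene of these lists was past the adjusted threshold in the genotype comparisons or the interaction with edgeR. With DESeq2, Pdlim2 and N4bp1 of 11 other inhibitors and Cd83 of 23 target genes were called between the ICH groups. None of 28 kinases and adaptors, 8 ligands and 12 receptors was called there, and of all genes 578 of 14600 were. Il1r1 of 9 receptors was called in sham, beside 150 of 14395 genes. Cd83 of 23 target genes was called in the interaction, beside 266 of 15089 genes. At an unadjusted p under 0.05 (edgeR), 2 of 23 target genes were higher and 2 lower between the ICH groups. Of 11 other inhibitors 1 was higher and 1 lower. None of the 28 kinases and adaptors, 8 ligands and 12 receptors had such a p. Over all genes the share was 12.2% in either direction.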

How the data were processed

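RNA-seq of poly(A) RNA (Illumina NovaSeq) from 12 mouse brain samples was used. There was 1 library per mouse as far as the labels and the study's methods say, so p-values measure the spread between these samples. The labels of the ICH-Fabp4fl/fl libraries, and of no others, carry a second number after the replicate number. The earlier number was read as the mouse, and the meaning of the second is not given. The authors deposited estimated counts (expected counts) per gene, not normalized, with 7.36 to 8.69% of values not whole. The submitters' processing notes name Bowtie2 2.2.8, HISAT2, StringTie 1.3.1 and DESeq2. The genome build, annotation and counting tool are not given in the sources used here, so gene coordinates are from RefSeq or GENCODE tables only.

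Counts were rounded and tested with edgeR 4.0.16 under R 4.3.3 (TMM, filterByExpr set to 10 counts and a total of 15, quasi-likelihood F-test, Benjamini-Hochberg adjustment over all genes tested, threshold 0.05), on the 6 libraries of each pair of groups and on all 12 for the interaction. Standard errors and 95% intervals come from the same F statistic. CPM used TMM over 12 libraries. The test was checked on simulated data. Correlations, motif counts and plots used Python 3.11.15.

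The 10 genes, the pathway and marker lists and the tests were chosen with earlier results of these data known. Named pathway genes were, per list, the 3 higher and 2 lower with the smallest p among those called in Fabp4fl/fl, and any called in a genotype comparison. Alternatives were relative log expression scaling, total counts, DESeq2 1.42.0, no filter, at least 10 counts demanded of each library, a replicate block, all 12 libraries in one fit, a 1.5-fold threshold and each library left out. The qPCR, flow cytometry and imaging of the study were not analysed here. The genes most like Rela are not reported here.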

Additional observations from a re-analysis of the deposited data

Results flagged for a closer look

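Cd83, one of the NF-kB target genes listed, had values in opposite directions in the 2 genotypes. Its log2 fold change after ICH was -1.03 (SE 0.21, adjusted p = 0.00759, edgeR's quasi-likelihood test) in Fabp4fl/fl, where all 3 ICH libraries lay below sham (16.1 ± 2.6 against 31.9 ± 7.8 CPM, SD, n = 3), and 0.58 (SE 0.19, adjusted p = 0.0542) in Fabp4CKO, where all 3 lay above (41.4 ± 6.6 against 27.7 ± 4.8 CPM). The interaction was 1.57 (SE 0.30, adjusted p = 0.14), so the difference between the genotypes did not pass with edgeR over all genes tested. The difference between the ICH groups was 1.42 (SE 0.19, adjusted p = 0.194), with no overlap. The summed microglial markers were also higher in 2 of these 3 ICH-Fabp4CKO libraries, and their part was not tested. DESeq2 called Cd83 in the interaction, where it called 266 of 15089 genes.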

How the results depend on the processing

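The 95% intervals between the ICH groups held a 1.5-fold difference for 9 of the 10 genes, so equal levels were not shown. Leave-one-out fits with 2 libraries in a group assume a like spread in both groups. The 10 genes kept their direction and call after ICH in both genotypes under every alternative that kept all libraries, except that Bcl3 was removed in Fabp4fl/fl when each library had to hold 10 counts (9 genes called). No scaling moved the median log2 fold change of all genes by over 0.1.

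Genes called between the ICH groups numbered 0, 578 with DESeq2 and 362 with all 12 libraries. In sham they numbered 16, 150 with DESeq2 and 2 when each library had to hold 10 counts. The interaction called 3, and 266 with DESeq2. The cause of these differences was not tested. Nfkbie turned to -0.017 between the ICH groups with total counts and to -0.018 with all 12 libraries, and Rela to -0.0045 in sham with total counts.

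Same-numbered libraries correlated at 0.03 to 0.20 (ICH in Fabp4fl/fl) and -0.01 to 0.00 (ICH in Fabp4CKO). Between the genotypes the values were -0.61 to 0.36 (after ICH) and -0.20 to 0.07 (sham). They were not set against libraries of unlike number, so whether the numbers pair the mice was not settled. For ICH in Fabp4fl/fl the replicate block called 7262 genes against 6707, and Nfkbia had an adjusted p of 0.00381 against 0.0432 (edgeR). In Fabp4CKO it called 3684 against 5247. With the replicate block the interaction called 1 gene, Nfkbie was -0.0065 between the ICH groups and Nfkbiz 0.0025 in sham, and the same number of the 10 genes was called in every comparison.

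Leaving out 1 library gave 4181 to 8165 called genes for ICH in Fabp4fl/fl, 751 to 10099 in Fabp4CKO (6 to 10 of the 10 genes), 0 to 2 between the ICH groups, 0 to 2862 in sham (0 to 2 of the 10 genes) and 0 to 371 for the interaction. The highest values in Fabp4CKO, between the ICH groups and for the interaction were those without ICH-Fabp4CKO mouse 2, and in sham without Sham-Fabp4fl/fl mouse 3. Genes whose direction turned were Relb (-0.23 to 0.083), Nfkbia (-0.67 to 0.12) and Nfkbie (-0.22 to 0.27) between the ICH groups, Rela (-0.061 to 0.080), Relb (-0.068 to 0.32), Nfkbiz (-0.13 to 0.22), Bcl3 (-0.18 to 0.69) and Tnfaip3 (-0.070 to 0.25) in sham, and Nfkb2 (-0.083 to 0.46) for the interaction.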
